A study of Mus musculus with 2 samples.

Results

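The myeloid growth factors and their receptors described here are 9 of the 31253 genes listed for these cells, taken by their symbols: the ligands Csf1, Csf2 and Flt3l, and the receptor genes Csf1r, Csf2ra, Csf2rb, Csf2rb2, Csf3r and Flt3. All 9 had unique molecular identifiers (UMIs, each a tag on a captured RNA molecule) in both libraries. CSF1 (M-CSF) acts on the receptor tyrosine kinase CSF1R and keeps monocytes and macrophages alive and differentiating. CSF2 (GM-CSF) binds a specific α chain, encoded by Csf2ra, that signals through a β chain; mice have a common β chain for GM-CSF, IL-3 and IL-5, encoded by Csf2rb, and a second, IL-3-specific β chain, encoded by Csf2rb2. CSF3R is the G-CSF receptor of the neutrophil lineage, and FLT3 with its ligand FLT3L drives the development of dendritic cells (DCs). Macrophages, neutrophils and DCs of a tumor depend on these factors, and each factor can be made by the tumor, the stroma or the infiltrating immune cells themselves.

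RNA of single cells was read in 2 libraries, 1 for each genotype, from CD45+ (leukocyte) cells sorted out of B16-F10 tumors, a mouse melanoma line, and captured with the BD Rhapsody bead system. The mice were C57BL/6 by the labels, with Irg1-/- mice on the C57BL/6J background by the study's methods. They carried Irg1+/+ or Irg1-/- and had received 200000 B16-F10 cells under the skin of the flank 10 days earlier. Irg1, listed as Acod1, encodes the enzyme that makes itaconate; the tumor cells injected were the same for both genotypes. By the study's methods, mice given tumor cells under the skin were female and 8 to 10 weeks old. In each library the cells came from 100 mm3 pieces of the tumors of 3 mice that were mixed before sorting, so the animals cannot be told apart, no test between the genotypes was possible, and mouse-to-mouse spread, genotype and library cannot be told apart either. In all, 6284 and 5794 cells were kept (Irg1+/+ and Irg1-/- in this order throughout), with 42105693 and 35307041 UMIs and medians of 4528 and 4594.5 UMIs per cell; 36 cell barcodes occurred in both libraries.

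Acod1 was not lower over all kept cells of the library labelled Irg1-/-: it had 3696 UMIs, 87.8 CPM (UMIs per 1000000 UMIs), in the Irg1+/+ library and 3805 UMIs, 108 CPM, in the library labelled Irg1-/-. It was higher there in macrophage-like cells (109 and 138 CPM), lower in classical monocyte-like cells (179.5 and 138 CPM) and about level in neutrophil-like cells (1592 and 1578 CPM). In cDC2-like cells, a type of DC, it was higher there at 16.4 and 35.9 CPM, from 33 and 114 UMIs. The tags lie at the 3' end of transcripts, and which bases of the gene the allele lacks is not given in the labels, so these levels may not check the genotype. The genotype of each library therefore rests on its label, and every direction between the libraries given below is a direction between libraries named by their labels.

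Cell types were gated cell by cell from lists of marker genes that hold none of the 9 genes, and each name carries "-like" since it rests on those markers. Macrophage-like cells (C1qa, C1qb, Apoe and others) were 20.4% and 17.9% of the kept cells, classical monocyte-like cells (Ly6c2, Vcan, Ccr2) 18.2% and 23.5%, T cell-like cells 22.7% and 13.6%, and NK cell-like cells 6.29% and 12.6%. Neutrophil-like cells numbered 76 and 198, pDC-like (plasmacytoid DC) cells 69 and 66, cDC1-like cells 284 and 175, cDC2-like cells 253 and 402, and mature DC-like cells (Ccr7, Fscn1) 425 and 350. Of the cDC2-like cells, 116 and 242 carried markers of 2 lineages, so their levels below may not be those of DCs alone. Ptprc, which encodes CD45, was present in each of these types, in the Irg1+/+ library at 789 CPM in macrophage-like and 3521 CPM in NK cell-like cells. Besides leukocytes, 88 and 16 cells carried melanocyte markers and 8 and 5 cells fibroblast markers, although the cells had been sorted for CD45. Levels below are the UMIs of a gene summed over the cells of a type, as CPM of that type's UMIs, with exact Poisson 95% intervals; shares of cells or UMIs have Clopper-Pearson 95% intervals. All intervals cover counting error only. Types are ranked among the 11 with at least 50 cells in each library, and rarer types are named apart.

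The sequences of 3 genes are shown, since they bear on how the values can be read. Csf1 (ENSMUSG00000014599) is protein coding and lies on the minus strand at chr3:107741048-107760469 (GRCm38). The 250 bases before its RefSeq transcription start, chr3:107760470-107760719 of GRCm38.p6 on the minus strand, are printed because Csf1 passed the size used to compare the libraries in more types than any other of the 9 genes. Capitals mark a match to the NF-kB consensus, read on the other strand, which starts 154 bases before the transcription start.
Csf1 upstream: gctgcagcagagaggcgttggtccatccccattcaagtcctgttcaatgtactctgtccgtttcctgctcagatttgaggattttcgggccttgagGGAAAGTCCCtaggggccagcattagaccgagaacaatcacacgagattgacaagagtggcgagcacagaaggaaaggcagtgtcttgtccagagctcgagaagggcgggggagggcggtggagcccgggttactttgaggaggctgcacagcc
The stretch is 56.4% G and C with 10 CpG, against medians of 52.4% and 6 over 32851 mouse promoters of this length in RefSeq. The NF-kB consensus occurred on either strand in 1.41% of them. Further motifs searched on both strands had no match here: the AP-1 motif TGANTCA, present in 6.75% of the promoters, the PU.1 motif GAGGAAGT, present in 2.44%, the GATA motif AGATAA, present in 9.99%, and the TATA box motif TATAAA, present in 12.4%. A match is a string of letters and does not show that a factor binds there.

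Csf2rb (ENSMUSG00000071713, chr15:78325752-78353847, plus strand) and Csf2rb2 (ENSMUSG00000071714, chr15:78282507-78305721, minus strand) are neighbours, 20030 bases apart, and near-copies of each other. Their annotated coding sequences have 2691 and 2637 bases, of which 2631 could be aligned and 2505 (95.2%) were identical. After the stop codon, where reads from the 3' end of a transcript mostly fall, 1431 of 1720 aligned bases (83.2%) were identical. Of the windows of 60 bases in Csf2rb, 20.6% of those in the coding sequence and 2.85% of those after the stop were also found in Csf2rb2. The 90 coding bases in which they differ most, bases 308 to 397 of Csf2rb and 311 to 400 of Csf2rb2, are shown with the 16 differing bases in capitals.
Csf2rb: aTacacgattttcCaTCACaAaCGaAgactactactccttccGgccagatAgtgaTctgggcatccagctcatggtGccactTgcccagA
Csf2rb2: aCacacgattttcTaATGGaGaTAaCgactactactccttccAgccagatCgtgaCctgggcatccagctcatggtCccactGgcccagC
Reads from a shared window cannot be given to either gene, so the split of UMIs between them carries this uncertainty. Csf3r lies at chr4:126024550-126044440, Csf2ra at chr19:61223957-61228429, Csf2 at chr11:54247271-54249667, Flt3 at chr5:147330741-147400489 and Flt3l at chr7:45129788-45136432. The Csf1r gene overlaps Hmgxb3, Csf2 overlaps Gm12223 and Flt3 overlaps Gm26597, all on the other strand, and Flt3l overlaps Gm45713 on its own strand. Whether the counting used the strand is not given in the sources used here, so reads of these pairs may have been counted together.

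**Figure D1:**
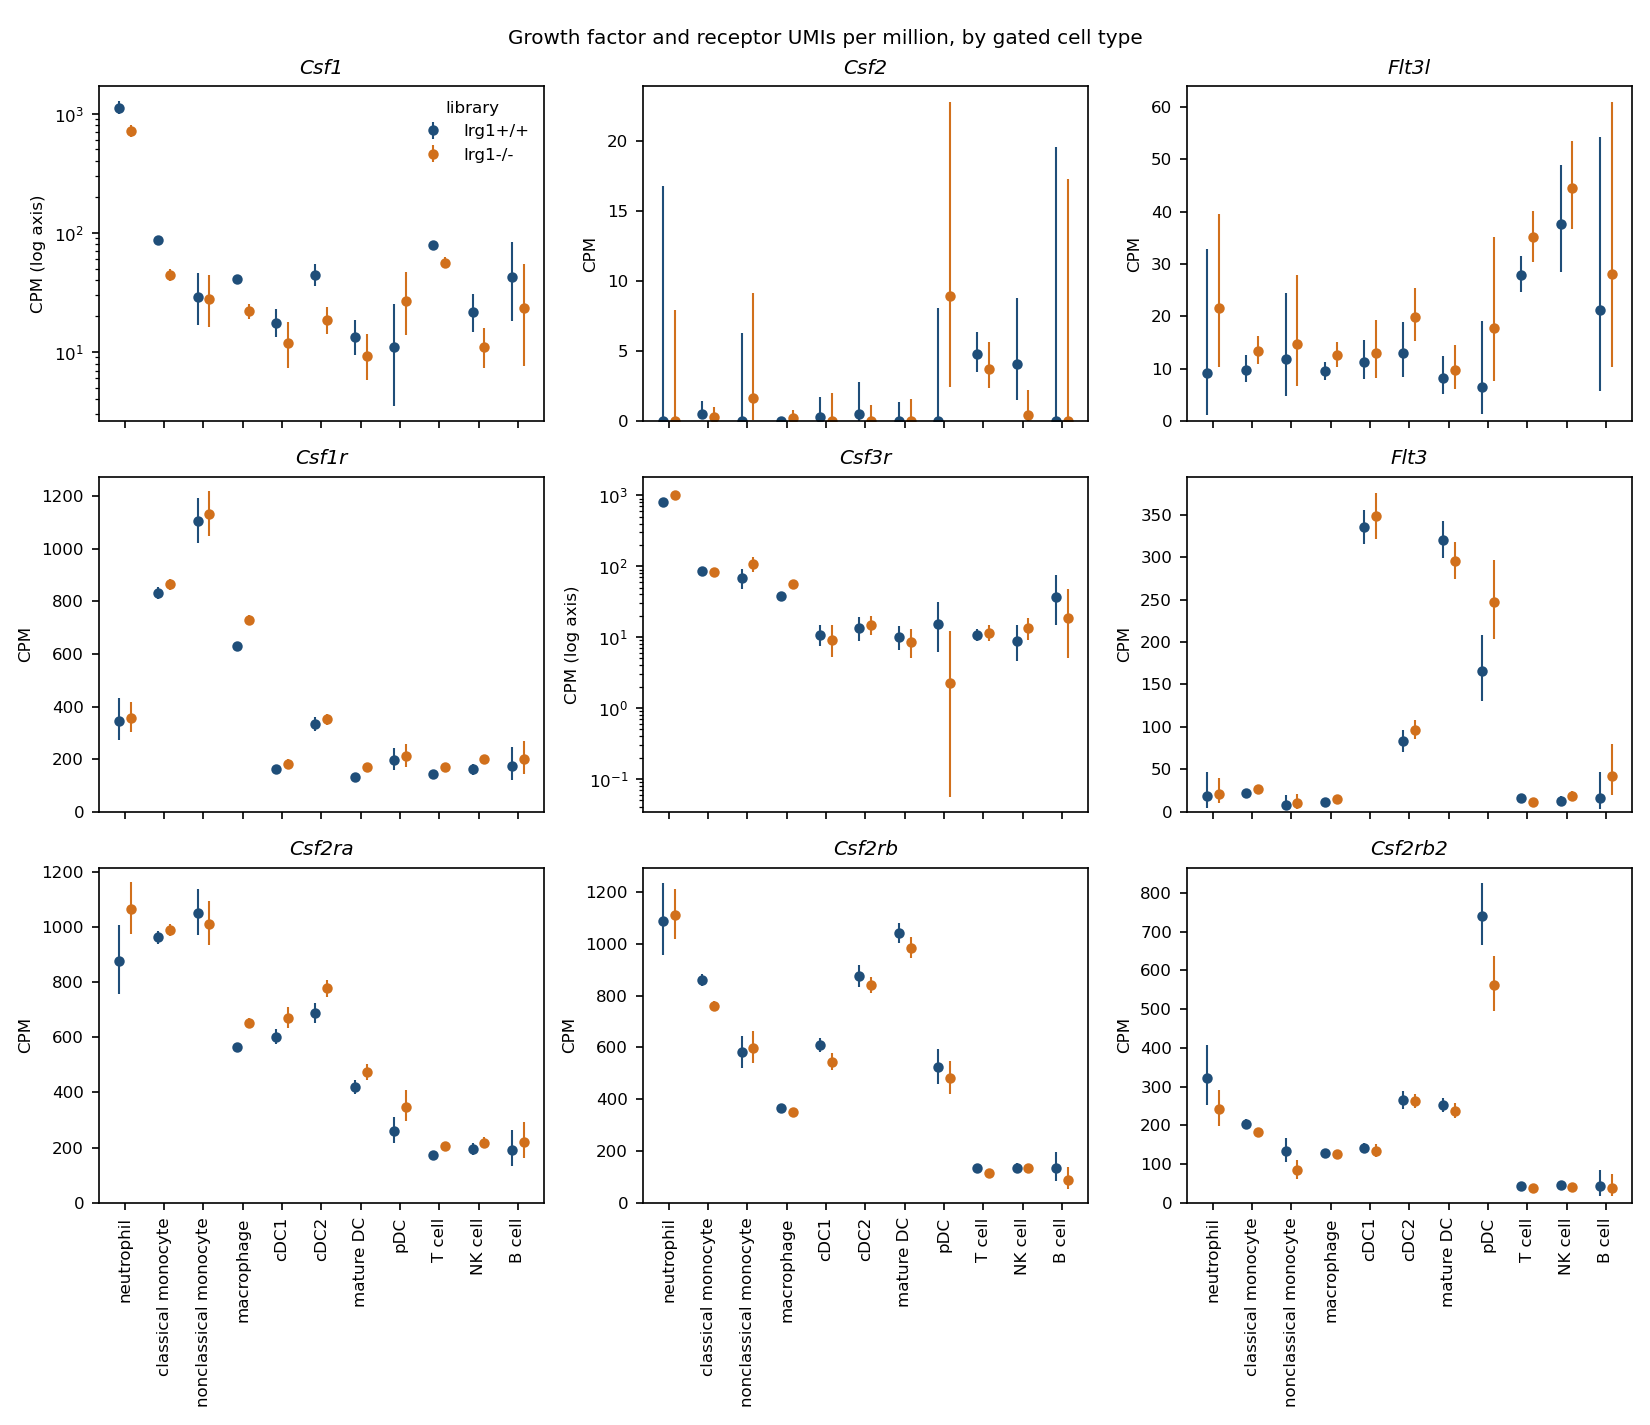
Level of each growth factor and receptor gene in CPM (vertical axes, from 0 for 7 genes and logarithmic for Csf1 and Csf3r) in 11 gated cell types, with points for the Irg1+/+ (blue) and the Irg1-/- (orange) library and bars for exact Poisson 95% intervals. Csf1 and Csf3r peaked in neutrophil-like cells, Csf1r in monocyte-like cells, Flt3 in cDC1-like and mature DC-like cells, Csf2rb2 in pDC-like cells, and Flt3l in NK cell-like and T cell-like cells.

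Csf1, the ligand of CSF1R, was highest in neutrophil-like cells among these 11 types in both libraries, and most of its UMIs lay in other, more numerous cells. Neutrophil-like cells had 1120 CPM (985 to 1269; 247 UMIs) in the Irg1+/+ library and 715 CPM (640 to 796; 332 UMIs) in the library labelled Irg1-/-. A UMI of Csf1 was found in 57.9% and 51.5% of neutrophil-like cells, against 5.32% and 3.29% of NK cell-like cells, which are deeper (medians of 2897 and 2673 UMIs against 1910 and 1908). Next came classical monocyte-like cells at 86.8 CPM (79.6 to 94.5) and T cell-like cells at 78.4 CPM (72.9 to 84.1) in the Irg1+/+ library, whose intervals overlapped. In the library labelled Irg1-/- T cell-like cells were next, at 56.3 CPM (50.4 to 62.6), followed by classical monocyte-like cells at 44.4 CPM (39.7 to 49.4). Macrophage-like cells stood at 40.6 and 21.9 CPM and mature DC-like cells at 13.4 and 9.28 CPM, and from cDC2-like cells downward each level in the order overlapped the next in either library.

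The shares of the Csf1 UMIs by cell type differed between the libraries. T cell-like cells held 28.4% of them in the Irg1+/+ library and 22.0% in the other, classical monocyte-like cells 19.6% and 22.0%, and macrophage-like cells 19.6% and 13.5%. Neutrophil-like cells held 9.10% and 22.0%, with 1.21% and 3.42% of the cells. A few rare cells carried Csf1 at levels above those of neutrophil-like cells. The 6 and 4 basophil-like cells had 75 and 37 Csf1 UMIs, which is 3318 and 1634 CPM, and 34 of the 37 lay in 1 cell. The 8 fibroblast-like cells of the Irg1+/+ library had 190 UMIs, 7.00% of that library's Csf1, with 103 of them in 1 cell, and the 5 fibroblast-like cells of the other library had 11. In bulk or pooled counts such as these a change in the number of cells of a type and a change in RNA per cell cannot be told apart, which is why levels are given within types.

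**Figure D2:**
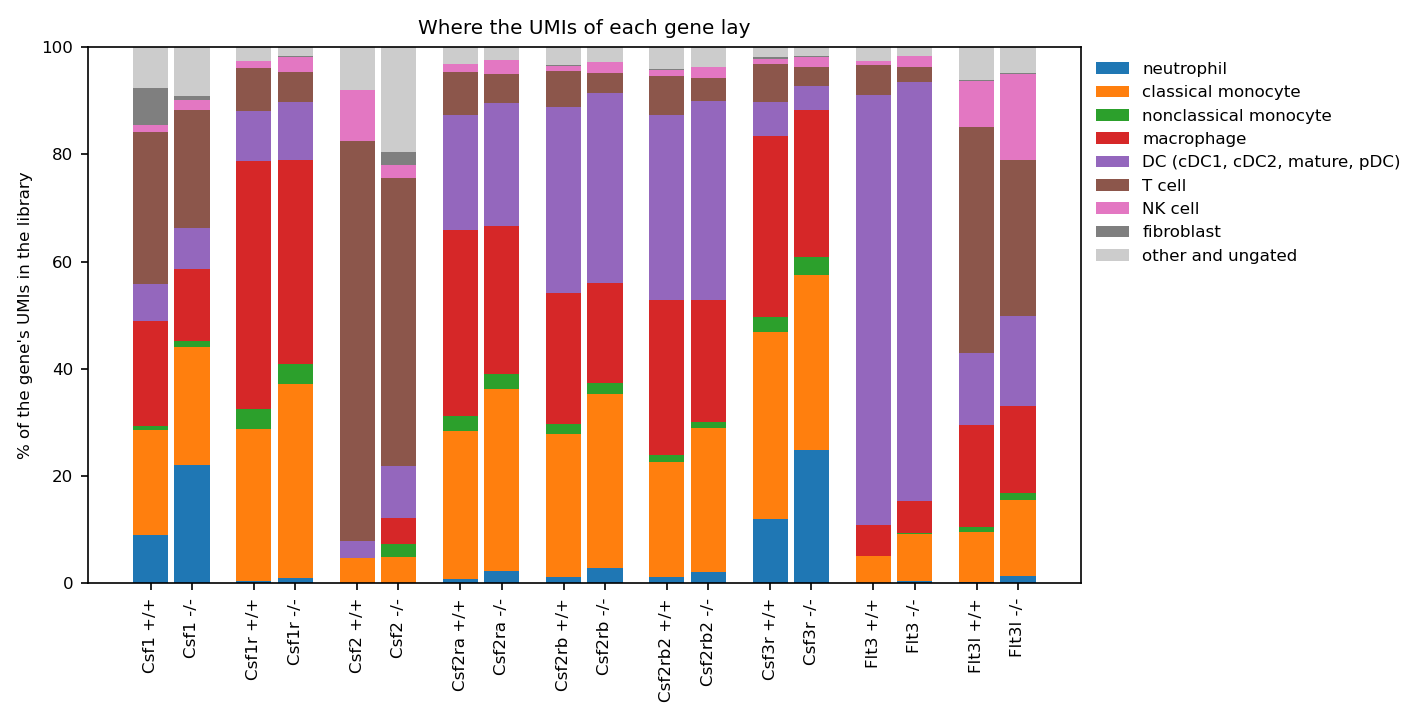
Share of each gene's UMIs (vertical axis, percent of the gene's UMIs in the library) that lay in each gated group of cells, with 1 bar per gene and library (+/+ and -/- for the libraries labelled Irg1+/+ and Irg1-/-). Neutrophil-like cells held 9.10% and 22.0% of Csf1, T cell-like cells 74.6% and 53.7% of Csf2, and DC-like cells most of Flt3.

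Csf2, which encodes GM-CSF, was scarce: 63 UMIs in 32 cells of the Irg1+/+ library and 41 UMIs in 23 cells of the library labelled Irg1-/-. T cell-like cells held 47 and 22 of these UMIs, a share of 74.6% and 53.7%, at 4.77 and 3.73 CPM, and 10 and 5 UMIs lay in 1 cell. With cells that carried markers of 2 lineages left out, the highest level of the 11 types in the Irg1+/+ library was 1.91 CPM, in NK cell-like cells, so T cell-like cells were lower still. Within T cell-like cells, CD8 T cell-like cells had 42 and 14 UMIs, of which 37 and 14 were in cells that carried cycling genes; their levels were 9.58 (6.74 to 13.2) and 4.82 CPM (2.63 to 8.08), and the other CD8 T cell-like cells had 3.73 CPM (1.21 to 8.70) and 0 UMIs, with overlapping intervals. Regulatory T cell-like cells had 0 UMIs in both libraries. The CD4 T cell-like cells had 0 and 6 UMIs. The 11 and 17 cells gated by markers of group 2 innate lymphoid cells (ILC2) had 2 and 7 Csf2 UMIs, 37.0 and 79.6 CPM, with 4 of the 7 in 1 cell. They carried T cell markers at 4637 and 2274 CPM in sum beside 2790 and 2286 CPM of the ILC2 markers, which goes against the ILC2 name. Neutrophil-like, B cell-like and mature DC-like cells had 0 UMIs in both libraries, and macrophage-like cells 0 and 2, so that a level of up to 0.229 CPM (3 UMIs) in macrophage-like cells of the Irg1+/+ library would not have been seen. Among the 11 larger types the order at the top could not be read, although T cell-like cells were above macrophage-like and classical monocyte-like cells beyond counting error in both libraries: in the Irg1+/+ library T cell-like cells overlapped NK cell-like cells (4.04 CPM, 1.48 to 8.79, from 6 UMIs), and in the other the highest level, in pDC-like cells, came from 4 UMIs in 1 cell.

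Flt3l, the ligand of FLT3, was highest in lymphocytes among the 11 types. NK cell-like cells had 37.7 CPM (28.5 to 49.0; 56 UMIs) and 44.4 CPM (36.6 to 53.4; 113 UMIs), and T cell-like cells 27.9 CPM and 35.1 CPM. The intervals of these neighbours overlapped in both libraries, and those of B cell-like cells (21.2 and 28.0 CPM, from 4 and 6 UMIs) reached over both. Among myeloid cells, macrophage-like cells had 9.47 and 12.5 CPM, classical monocyte-like cells 9.81 and 13.4 CPM and mature DC-like cells 8.16 and 9.70 CPM, with intervals below that of NK cell-like cells in either library. Neutrophil-like cells overlapped NK cell-like cells in both libraries, at 9.07 CPM (1.10 to 32.8, from 2 UMIs) and 21.5 CPM (10.3 to 39.6, from 10 UMIs). The cDC2-like cells had 12.9 and 19.9 CPM. Within CD8 T cell-like cells Flt3l was 18.4 and 25.5 CPM in cells with cycling genes and 38.8 and 57.8 CPM in the rest, so the non-cycling cells were higher in both libraries. T cell-like cells held 42.1% of the Flt3l UMIs in the Irg1+/+ library and 29.2% in the other, where they were also fewer.

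Csf1r, the receptor of CSF1, marked the monocyte and macrophage lineage in a clear order. Nonclassical monocyte-like cells had the highest level, 1105 CPM (1022 to 1193) and 1132 CPM (1049 to 1219), classical monocyte-like cells had 831 and 865 CPM, and macrophage-like cells 631 and 731 CPM. These 3 levels did not overlap within either library. Neutrophil-like cells (345 and 357 CPM) and cDC2-like cells (334 and 351 CPM) followed and overlapped each other. Macrophage-like cells held 46.2% and 37.9% of the Csf1r UMIs and classical monocyte-like cells 28.4% and 36.2%. Among ranges of macrophage-like cells cut from marker scores, those scored highest for MHC class II genes had 804 and 773 CPM and those scored highest for Vegfa and Spp1 had 469 and 559 CPM, so the receptor was lower in the Vegfa range in both libraries. Of the 1282 and 1035 macrophage-like cells, 314 and 300 lay near the cut between ranges.

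Csf1r UMIs were also found in lymphocytes, which are not known to express it. T cell-like cells had 145 and 170 CPM, 23.0% and 23.3% of the level in macrophage-like cells, NK cell-like cells 25.6% and 27.2%, and B cell-like cells 27.7% and 27.5%. C1qa, a macrophage gene, reached 9.498% and 10.5% of its macrophage level in T cell-like cells, and Lyz2, a gene of all monocytes and macrophages, 20.6% and 23.4%. With cells that carried markers of 2 lineages left out, Csf1r in T cell-like cells was 17.2% and 19.5% of the macrophage level. For thinning, 1486 and 1292 cells short of 2000 UMIs were left out and each other cell was thinned to 2000 UMIs. Of the 1033 and 871 macrophage-like cells left, 69.1% and 73.0% had a Csf1r UMI. Of the 1206 and 623 T cell-like cells left, 21.4% and 27.5% had one. Receptor levels near those of lymphocytes were not read as expression, and for Csf1r the cDC1-like (162 and 180 CPM), mature DC-like (134 and 170 CPM) and pDC-like cells (197 and 211 CPM) were in that range.

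Csf2ra, the α chain that binds GM-CSF, was spread over all myeloid types. Nonclassical monocyte-like cells (1052 and 1012 CPM), classical monocyte-like cells (963 and 990 CPM) and neutrophil-like cells (875 and 1066 CPM) were highest, with overlapping neighbours in either library. The cDC2-like cells had 687 and 779 CPM, cDC1-like cells 602 and 671 CPM, macrophage-like cells 565 and 652 CPM, mature DC-like cells 419 and 473 CPM and pDC-like cells 260 and 349 CPM. Lymphocytes stood at 174 to 220 CPM, which is 30.8% to 34.4% of the macrophage level. The pDC-like cells thus overlapped NK cell-like and B cell-like cells in the Irg1+/+ library and were above them in the other.

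Csf2rb, the common β chain, followed another order than its α-chain partner. Neutrophil-like cells (1089 and 1113 CPM) and mature DC-like cells (1042 and 985 CPM) were highest and overlapped. The cDC2-like cells had 876 and 840 CPM, classical monocyte-like cells 859 and 760 CPM, cDC1-like cells 608 and 545 CPM, and macrophage-like cells only 368 and 351 CPM, less than any DC type. Lymphocytes had 88.7 to 136 CPM. Mature DC-like cells were therefore near the top for the β chain and at the lower end of the myeloid types for the α chain, in both libraries. In thinned classical monocyte-like cells, 633 of the 958 cells (66.1%) with a UMI of either chain had both in the Irg1+/+ library and 671 of 1120 (59.9%) in the other, and in pDC-like cells 25.5% and 31.1% had both; such shares are bounded by the sparse counts. The 6 and 4 basophil-like cells had 2522 (1910 to 3267) and 1944 (1412 to 2609) CPM of Csf2rb, above the intervals of all 11 larger types in either library.

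Csf2rb2, the IL-3-specific β chain, was highest in pDC-like cells among the larger types. They had 741 CPM (665 to 825; 339 UMIs) and 562 CPM (495 to 636; 253 UMIs), followed by neutrophil-like cells at 322 and 241 CPM and cDC2-like cells at 264 and 263 CPM, whose intervals overlapped. Macrophage-like cells had 129 and 126 CPM and T cell-like cells 43.4 and 37.8 CPM. Among the rarer types, the 6 and 4 basophil-like cells were higher than pDC-like cells. They had 1726 CPM (1227 to 2359; 39 UMIs) and 1413 CPM (967 to 1995; 32 UMIs), with intervals above those of pDC-like cells in both libraries. Of the UMIs of both β chains together, Csf2rb2 made up 58.7% (54.5 to 62.7) and 53.9% (49.3 to 58.5) in pDC-like cells, whereas it made up 26.0% and 26.4% in macrophage-like, 19.2% and 19.4% in classical monocyte-like, 18.8% and 19.7% in cDC1-like and 19.5% and 19.4% in mature DC-like cells. Basophil-like cells, a type known for its response to IL-3, were between these values, at 40.6% and 42.1% (from 96 and 76 UMIs). In the library labelled Irg1-/- their interval (30.9 to 54.0) overlapped that of pDC-like cells. Eosinophil-like cells stood at 46.2% (26.6 to 66.6) and 23.3% (16.8 to 30.9), and mast cell-like cells at 27.3% (6.02 to 61.0) and 45.7% (28.8 to 63.4). Among the larger types, the interval of pDC-like cells lay above those of 9 of the other types in both libraries. It lay above that of B cell-like cells in the Irg1+/+ library but not in the other. Il3 itself had 0 UMIs in either library, which allows up to 3 UMIs in each.

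**Figure D3:**
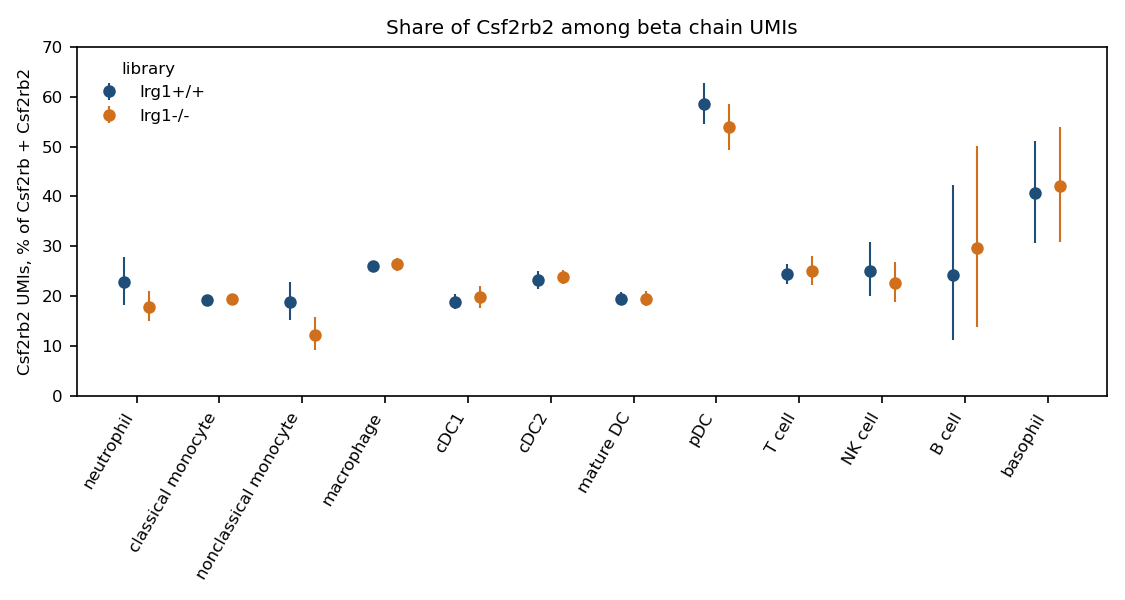
Csf2rb2 UMIs as a percentage of the UMIs of Csf2rb and Csf2rb2 together (vertical axis) in 12 gated cell types, for the Irg1+/+ (blue) and Irg1-/- (orange) library, with Clopper-Pearson 95% intervals. The pDC-like cells sit at 58.7% and 53.9% and the basophil-like cells at 40.6% and 42.1%, while macrophage-like cells sit at 26.0% and 26.4%.

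Csf3r, the G-CSF receptor, was a gene of neutrophil-like cells, with 803 CPM (689 to 930; 177 UMIs) and 1018 CPM (929 to 1114; 473 UMIs). Classical monocyte-like cells had 84.7 and 82.4 CPM, nonclassical monocyte-like cells 67.9 and 108 CPM, and macrophage-like cells 38.2 and 55.9 CPM. The level in neutrophil-like cells was thus over 9 times that of the next of the 11 types, and the remaining types stood at 37.1 CPM or less. Because neutrophil-like cells were few, they held only 11.9% and 24.9% of the Csf3r UMIs, against 35.0% and 32.5% in classical monocyte-like and 33.7% and 27.3% in macrophage-like cells. Neutrophil-like cells carried their own defining markers at 11199 and 18008 CPM in sum (S100a9 alone 3475 and 7387 CPM), and macrophage markers at 1887 and 1847 CPM.

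Flt3 was a gene of dendritic cells. The cDC1-like cells had 335 and 348 CPM, mature DC-like cells 321 and 296 CPM, pDC-like cells 166 and 247 CPM, and cDC2-like cells 83.0 and 96.8 CPM. Each of these was above the classical monocyte-like cells (21.9 and 26.5 CPM), macrophage-like cells (12.0 and 14.7 CPM) and T cell-like cells (15.8 and 11.01 CPM). The cDC1-like cells held 40.02% and 28.6% of all Flt3 UMIs and mature DC-like cells 31.4% and 30.9%. Few cells had UMIs of both Flt3l and Flt3. Of the thinned cells with a UMI of either gene, both were found in 5 of 159 and 5 of 138 mature DC-like cells and in 0 of 109 and 0 of 48 T cell-like cells, and the counts are too sparse to show whether the genes occur together. For Csf1 and Csf1r in thinned classical monocyte-like cells, a Csf1r UMI was found in 76.8% and 68.7% of the cells with a Csf1 UMI and in 76.8% and 78.7% of those without.

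Between the libraries, 2 of the 9 genes passed 1.5-fold (a log2 ratio of 0.585 either way) over all kept cells. Csf1 was lower in the library labelled Irg1-/-, at 42.7 against 64.5 CPM, a log2 ratio of -0.59 (-0.69 to -0.50), and Csf3r was higher, at 53.8 against 35.2 CPM, 0.61 (0.51 to 0.71). Ratios are the library labelled Irg1-/- over Irg1+/+ with 0.5 UMIs added to each count, and their 95% intervals are exact and conditional on the sum of UMIs. Of the 14204 genes that reached 20 UMIs in sum, 5.58% were higher by this size and 9.82% lower, so 1 of 9 in each direction is near that background. The other ratios were 0.26 for Csf1r, 0.28 for Csf2ra, 0.09 for Csf2rb, 0.06 for Csf2rb2, -0.03 for Flt3, 0.37 (0.22 to 0.53) for Flt3l and -0.36 (-0.97 to 0.22) for Csf2, where the median over all genes was -0.08. When both libraries were weighted to the same mix of cell types, a comparison added after the data had been seen, Csf1 stood at -0.79 and Csf3r at 0.26. Neutrophil-like cells numbered 76 and 198, and at equal composition Csf3r was no longer past 1.5-fold, whereas Csf1 was. The Csf1 call was lost under 6 of 10 alternatives, 4 of them just short of the size at -0.58 to -0.52 and the others at -0.47 and -0.25, and that of Csf3r under 4 of 10, at 0.26 to 0.57. Csf1 was -0.57 without the cell with most Csf1 UMIs in each library, in the Irg1+/+ library a fibroblast-like cell with 103. It was -0.54 without cells gated as melanocyte, fibroblast or endothelial or left ungated, a comparison also added after the data had been seen. The Csf2 ratio turned to 0.76 after thinning and to 0.53 without cells of 2 lineages.

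**Figure D4:**
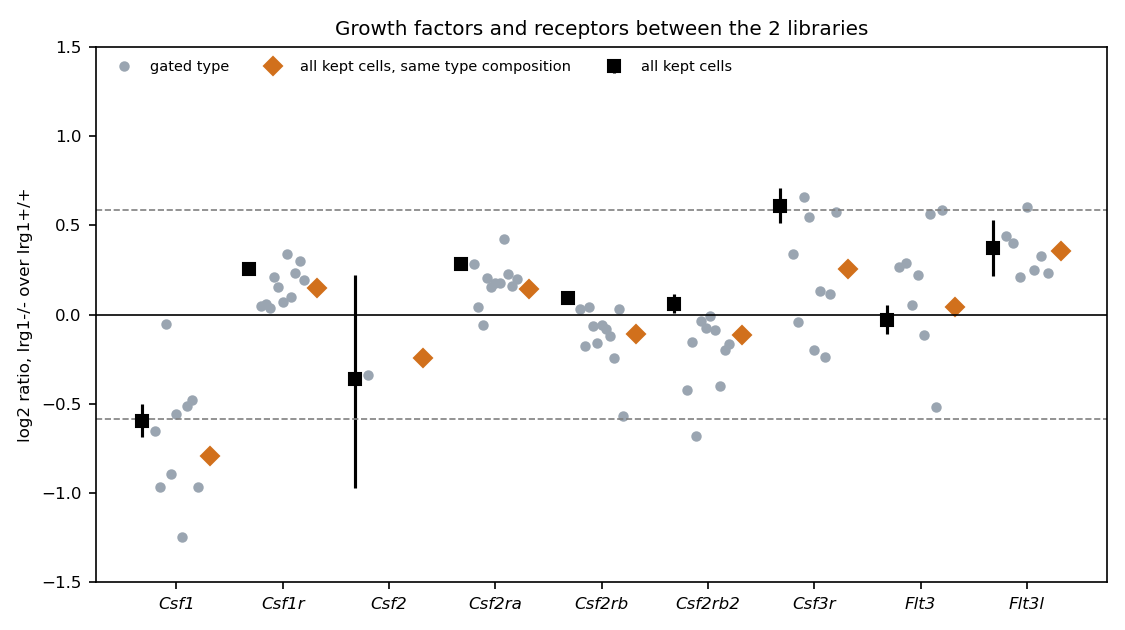
Log2 ratio of the library labelled Irg1-/- over Irg1+/+ (vertical axis) for each gene over all kept cells (black squares with 95% intervals), in each gated type with at least 20 UMIs (grey points) and over all kept cells at the same type composition (orange diamonds); dashed lines mark 1.5-fold. Csf1 lies below 0 in each type drawn, and Csf3r drops from 0.61 to 0.26 at the same composition.

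Csf1 passed the size in the most types. Among 11 types it was lower in the library labelled Irg1-/- in 10, and of the 9 types with enough UMIs 5 passed 1.5-fold, all lower, and 6 had an interval below 0. All types come from the same 2 libraries, so their directions are not independent. The 10 include nonclassical monocyte-like cells at -0.05 (17 and 17 UMIs) and B cell-like cells with 8 and 5 UMIs. In classical monocyte-like cells Csf1 fell from 86.8 to 44.4 CPM (531 and 332 UMIs), a log2 ratio of -0.97 (-1.17 to -0.77), where 5.9% of genes were lower and 5.06% higher past that size. Among macrophage-like cells it stood at 40.6 and 21.9 CPM (532 and 203 UMIs), -0.89 (-1.13 to -0.66), against 6.59% of genes lower and 5.2% higher. Over both libraries these were the myeloid types with the most Csf1 UMIs, and no other of the 9 genes passed 1.5-fold in either.

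In neutrophil-like cells the Csf1 ratio was -0.65 (-0.89 to -0.41), the only 1 of 6 genes with enough UMIs past 1.5-fold, but 21.6% of all genes were lower and 9.96% higher there, and with TMM scaling, which shifted all ratios in this type by 0.23, it was -0.42. In cDC2-like cells, of which 116 of 253 and 242 of 402 carried markers of 2 lineages, it was -1.25 (-1.75 to -0.76), from 89 and 59 UMIs of which 33 lay in 1 cell of the Irg1+/+ library; 7.85% of genes were lower there and 5.39% higher, and Flt3l was the other gene past the size, higher at 0.60 (-0.06 to 1.34; 26 and 63 UMIs). In NK cell-like cells Csf1 was -0.97 (-1.75 to -0.19), from 32 and 28 UMIs, against 7.42% of genes lower and 6.11% higher, and it was 0.08 once cells with markers of 2 lineages were left out. In T cell-like cells it was -0.48 (-0.67 to -0.29), short of 1.5-fold, and 0 of 9 genes passed there, where 6.41% of all genes were lower and 3.24% higher. The pDC-like cells were the exception in direction, with 5 and 12 UMIs.

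**Figure D5:**
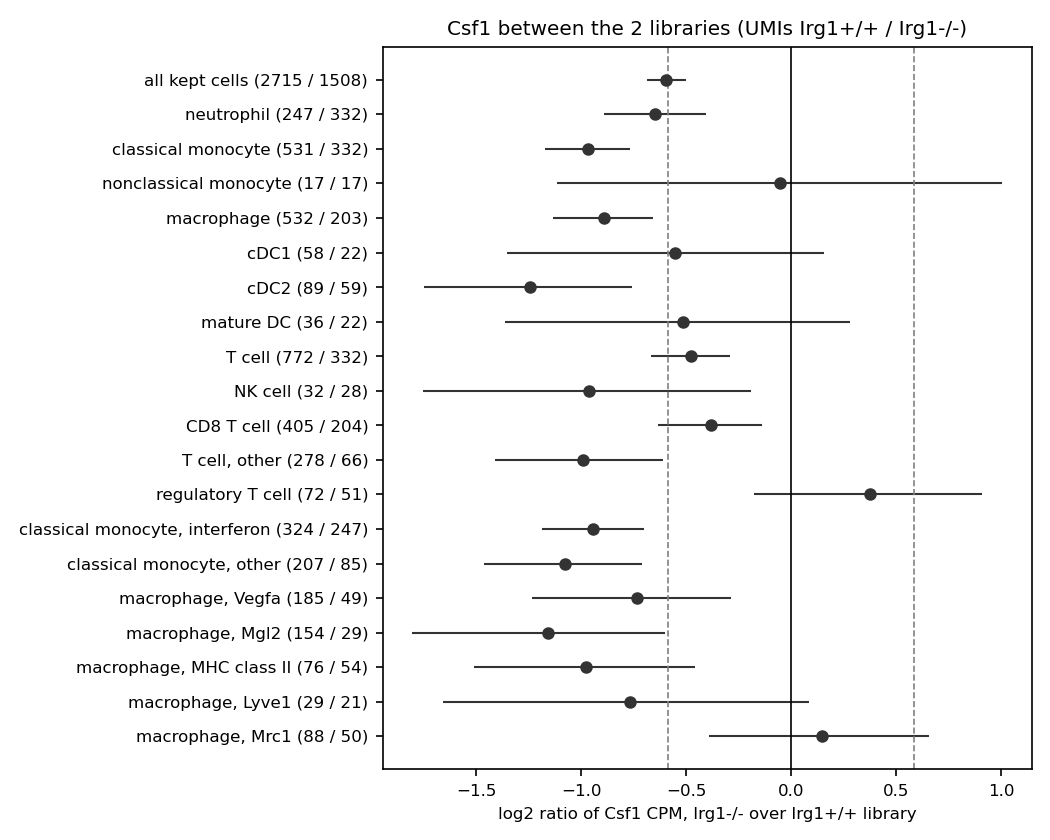
Log2 ratio of Csf1 CPM, library labelled Irg1-/- over Irg1+/+ (horizontal axis), over all kept cells, in gated types and in ranges within them, with exact 95% intervals and the UMIs of both libraries in brackets; dashed lines mark 1.5-fold. Points lie from -1.25 in cDC2-like cells to 0.37 in regulatory T cell-like cells, and the monocyte ranges sit near -1.

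The Csf1 difference was not the same in all ranges of these types. In classical monocyte-like cells it was -0.94 (-1.19 to -0.70) in cells scored for interferon genes (Cxcl9, Cxcl10, Gbp2), where 6.66% of all genes were lower past 1.5-fold, and -1.08 (-1.46 to -0.71) in the rest, where 5.89% were. Among macrophage-like cells it was -1.16 in the Mgl2 range, -0.98 in the MHC class II range and -0.74 in the Vegfa range, where Csf1 was highest (73.8 and 44.0 CPM), but 0.15 (-0.39 to 0.66) in the Mrc1 range. In the Lyve1 range it was -0.77 (-1.66 to 0.09), from 29 and 21 UMIs. Of all genes, 7.93% were lower past 1.5-fold in the Mgl2 range, 5.74% in the MHC class II range, 8.94% in the Vegfa range and 9.87% in the Lyve1 range. Regulatory T cell-like cells also stood apart, at 65.5 and 84.6 CPM, 0.37 (-0.18 to 0.91), from 72 and 51 UMIs, and CD8 T cell-like cells were at -0.38 (-0.63 to -0.14). T cell-like cells given no subset name passed 1.5-fold, at 94.4 and 47.2 CPM, -0.99 (-1.41 to -0.61), from 278 and 66 UMIs. There 2 of 8 members were lower, Csf1 and Flt3 (-0.79), against 8.59% of all genes lower and 4.53% higher. CD4 T cell-like cells were at -0.005 (-1.29 to 1.20), from 15 and 11 UMIs. The ranges were cut from scores and share libraries and gates, and differences between them were not tested. Genes of other cells moved in the same direction within these types: the T cell markers summed to 451 and 336 CPM in classical monocyte-like cells and 500 and 388 CPM in macrophage-like cells, and melanocyte markers to 156 and 43.7 CPM and 189 and 89.1 CPM. Their part in the Csf1 result was not tested.

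Most differences of the receptors within types were short of 1.5-fold. Csf1r and Csf2ra were higher in macrophage-like cells of the library labelled Irg1-/- by 0.21 (0.17 to 0.26) and 0.21 (0.16 to 0.26), and about level in classical monocyte-like cells, at 0.06 and 0.04. Within the MHC class II range of macrophage-like cells both were -0.06, so the difference in the whole type was not seen in each range. In the Lyve1, Mgl2, Mrc1 and Vegfa ranges Csf1r was 0.253, 0.319, 0.162 and 0.256, and Csf2ra 0.255, 0.179, 0.325 and 0.243. Csf2rb was lower in classical monocyte-like cells, at -0.18 (-0.23 to -0.12), and -0.06 in macrophage-like cells. Csf2rb2 was lower in pDC-like cells, at -0.40 (-0.64 to -0.16), without passing 1.5-fold. None of these 4 genes passed that size in macrophage-like or classical monocyte-like cells.

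Csf3r was 0.34 (0.09 to 0.60) in neutrophil-like cells, -0.04 in classical monocyte-like cells and 0.55 (0.37 to 0.73; 500 and 518 UMIs) in macrophage-like cells, all short of 1.5-fold. Among ranges of the latter it passed the size in the Mrc1 range, at 28.9 and 55.6 CPM, 0.95 (0.58 to 1.31), the only 1 of 8 members there to pass, where 6.38% of all genes were higher, and it was 0.06 in the MHC class II range. In macrophage-like cells the neutrophil gene S100a8 was at 7.87 and 24.6 CPM, the neutrophil markers together at 234.7 and 242.9 CPM (7 of 7 detected), the most abundant of them Hcar2 with 99.04 and 108 CPM, and in T cell-like cells S100a8 was at 8.22 and 17.5 CPM. Their part in the Csf3r difference was not tested. Nonclassical monocyte-like cells had 2 of 6 genes past 1.5-fold, Csf3r higher at 0.66 (0.08 to 1.27; 40 and 66 UMIs) and Csf2rb2 lower at -0.68 (-1.22 to -0.16; 79 and 51 UMIs), where 8.71% of genes were higher and 10.9% lower; after thinning the Csf3r ratio there was -0.28, and the Csf2rb2 call was lost under 3 of 8 alternatives, with -0.49 without cells near the cut of the gate. Flt3 was 0.06 in cDC1-like, -0.12 in mature DC-like and 0.57 (0.14 to 1.01; 76 and 111 UMIs) in pDC-like cells. Flt3l was above 0 in each type with enough UMIs, with 0.33 (0.06 to 0.60) in T cell-like, 0.40 (0.02 to 0.78) in macrophage-like and 0.23 (-0.24 to 0.73) in NK cell-like cells.

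Other ligands and receptors of these families were looked at next. Il34, the second ligand of CSF1R, had 6 and 1 UMIs, and Csf3, which encodes G-CSF, 12 and 24 UMIs, of which 9 lay in 1 macrophage-like cell of the library labelled Irg1-/-. Il5 had 1 and 5 UMIs. Kitl (stem cell factor) had 184 and 139 of its 238 and 246 UMIs in macrophage-like cells, at 14.1 and 14.99 CPM, and its receptor gene Kit was seen in mast cell-like cells (1962 and 1334 CPM, a marker of their gate), cDC1-like (203 and 200 CPM) and cDC2-like cells (115 and 94.3 CPM). Kit was lower past 1.5-fold in the library labelled Irg1-/- in NK cell-like cells, at 105 and 35.4 CPM, -1.57 (-1.96 to -1.19), in T cell-like cells, at 18.8 and 11.7 CPM, -0.68 (-1.10 to -0.28), and in mature DC-like cells, at 87.2 and 57.4 CPM, -0.60 (-0.92 to -0.29), where 8.88% of all genes were lower. Kitl in classical monocyte-like cells had 4 and 47 UMIs, with 34 of the 47 in 1 cell.

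Of 66 genes listed for the signalling around these receptors, 61 had enough UMIs over all kept cells, and 3 were higher and 3 lower past 1.5-fold, with a median log2 ratio of 0.11 against -0.08 over all genes; this is no larger a share than the 5.58% and 9.82% of all genes. Socs1, an inhibitor of cytokine signalling, was higher at 52.7 and 92.8 CPM, 0.82 (0.74 to 0.89), and was higher again in macrophage-like (0.89) and classical monocyte-like cells (1.03). Csf3 and Il5ra, the IL-5 receptor α chain of eosinophils, were the others that were higher. Il5ra is itself a marker of the eosinophil-like gate (26 and 70 cells). Ccl17 and Ccl22, chemokines induced by GM-CSF in DCs and macrophages, were lower over all kept cells, at -0.68 and -0.77, in macrophage-like cells (-0.86 and -0.77), and Ccl17 also in classical monocyte-like cells (-1.40). Ccl22 is itself a marker of the mature DC-like gate (425 and 350 cells). Of the 10 reported targets, 3 were lower and 0 higher past 1.5-fold over all kept cells. Short of that size, Pim1 (0.38), Cd300lf (0.37), Ccnd2 (0.29) and Ccnd1 (0.24) were above 0. Bcl2l1 (-0.24) and Il1rn (-0.03) were below it. Mitf, a melanocyte factor that also acts downstream of CSF1R in osteoclasts, was lower at -1.08, with 88 and 16 melanocyte-like cells. All 18 genes of signal transduction, among them Jak2, Stat5a and Stat5b, stayed within 1.5-fold over all kept cells and in both types.

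In macrophage-like cells 58 of the listed genes were measured and 2 were higher, Socs1 and Gfi1 (16 and 20 UMIs, 0.81, -0.20 to 1.87), and 3 lower, Ccl17, Ccl22 and Il7r (395 and 257 CPM, -0.62), where 5.2% of all genes were higher and 6.59% lower. In classical monocyte-like cells 5 of 58 were higher: Kitl, Socs1, Socs2 (0.64), the DC factor gene Zbtb46 (1.07) and the cyclin gene Ccnd1 (42.5 and 82.4 CPM, 0.95), against 5.06% of all genes higher and 5.9% lower. Socs2 is also a marker of the mature DC-like gate. Of the 6 that were lower, 5 were Tslp (14 and 9 UMIs, -0.90, -2.32 to 0.38), Il7r (-0.79), Id2 (-0.60), Ccl17 and Mitf (-0.80). Medians over the list were 0.14 and 0.05. Among the 10 reported targets in classical monocyte-like cells, Ccnd1 was higher while Ccl17 and Mitf were lower. Mitf is also a melanocyte gene, and the melanocyte markers were lower in these cells too, as given above. Their part in the Mitf result was not tested.

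Genes whose levels over the 11 types of both libraries were most like each member's are given as a description over 22 points, which share the libraries and their depth. Csf1 was most like Ccl3 (Pearson r 0.88), Etf1 (0.87) and Alkbh5 (0.87), and Csf3r like Clec4e (0.95), Acod1 (0.94) and Sgms2 (0.94), all 6 highest in neutrophil-like cells. Csf1r was most like Clec4a1 and Lrp1 (both 0.96) and Clec4a3 (0.96), and Csf2ra like Nfe2l2, Gpr35 and Tnfrsf1a (each 0.96). Csf2rb was most like Gcnt2 (0.92), Kif1a (0.91) and Skap2 (0.87), and Csf2rb2 like Acsl1 (0.91), Fmnl2 (0.88) and Rell1 (0.87), which peaked in pDC-like cells. Flt3 was most like Herpud1 (0.91), Dapp1 (0.91) and Syngr2 (0.89), and Flt3l like Itih5 (0.91), Tbx21 (0.87) and Gimap5 (0.87), the last 3 highest in NK cell-like cells. These were the highest of 9113 genes in each case.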

How the data were processed

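The files deposited by the authors hold unnormalized UMI counts for each gene in each cell. The authors trimmed reads with fastp, listed barcodes with UMI-tools and mapped with STAR against mouse Ensembl 100; the submitters' processing notes also name CASAVA 1.8, Seurat and GRCm38. A cell was kept if it had more than 200 genes and less than 10% of its UMIs from mt- genes, which left out 124 and 102 cells, and mt- genes were then dropped.

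Each cell was gated to the marker list with the highest score, with at least 3 of its markers detected; 595 and 374 shallow cells (medians of 642 and 651.5 UMIs) stayed without a type and 587 and 599 lay near the cut. Doublets were not called. Cells with markers of 2 lineages (1086 and 1009) were left out as an alternative. Types from 28 clusters gave 8449 of the 10144 cells compared (83.3%) the same name, and not all kept cells were compared. The gate was set with the data in view, and the 9 genes, marker lists and the list of 66 genes were chosen with earlier results of these data known. UMIs were summed per type and library. With 1 library per genotype there is no test and no replicate check: differences were called by size, 1.5-fold with at least 20 UMIs over both libraries, in types with at least 50 cells in each. The genes named are the 9 members, listed genes past that size, listed ligands and receptors, and for members with at least 200 UMIs the 3 genes most like them among genes with at least 500 UMIs that are no gate marker. Positions are from GENCODE (GRCm38) and promoters from RefSeq (GRCm38.p6). Software was Python 3.11.15, numpy 2.4.6, scipy 1.17.1, pandas 2.3.3, scanpy 1.11.5, matplotlib 3.10.9, Biopython 1.88, and edgeR 4.0.16 in R 4.3.3 for TMM factors only. The gate and the ratio were run on simulated data to check the computation. Simulated cells were drawn from the mean profiles of the gated types, so they cannot show that the types are right. Simulated sums were Poisson counts, without the clumping of UMIs in single cells. The values of 1 listed gene are not reported here.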

Additional observations from a re-analysis of the deposited data

How the results depend on the processing

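No paired analysis was possible because each genotype had 1 library, so no replicate could be left out either. Of 777 alternative values of 86 log2 ratios, 703 stayed within the interval of the reported value. The sign changed in 55 of the 777, over 32 of the ratios, 2 of these for ratios past 1.5-fold: Csf1 in NK cell-like cells, 0.081 with cells of 2 lineages left out, and Csf3r in nonclassical monocyte-like cells, -0.28 after thinning to 2000 UMIs. The Csf1 ratio stayed past 1.5-fold under all 9 alternatives in classical monocyte-like (-1.03 to -0.75), macrophage-like (-0.97 to -0.64) and cDC2-like cells (-2.26 to -0.93), and under 8 of 9 in neutrophil-like cells (-1.12 to -0.42).

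Over all kept cells, the mean of each cell's CPM, which gives shallow cells equal weight, gave -0.25 for Csf1, 0.16 for Csf1r, 0.23 for Csf2, 0.25 for Csf2ra, 0.03 for Csf2rb, -0.061 for Csf2rb2, 0.78 for Csf3r and -0.13 for Flt3. TMM scaling gave 0.33 for Csf1r, 0.36 for Csf2ra, 0.17 for Csf2rb and 0.14 for Csf2rb2. With cells of 2 lineages left out, Csf1 was -0.47, Csf2 0.53, Csf2rb 0.056 and Flt3 -0.14. Thinning, which left out cells short of 2000 UMIs, gave 0.76 for Csf2, 0.004 for Csf2rb, -0.013 for Csf2rb2 and 0.46 for Csf3r. At the same type composition, added after the data were seen, Csf1 was -0.79, Csf1r 0.15, Csf2ra 0.14, Csf2rb -0.11, Csf2rb2 -0.12 and Csf3r 0.26. The Csf1 ratio over all kept cells stayed past 1.5-fold under 4 of 10 alternatives (-0.79 to -0.25). The causes of these shifts were not tested.

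Of the listed signalling genes, with no minimum beyond 1 UMI 5 were lower over all kept cells, 5 higher in macrophage-like and 8 higher in classical monocyte-like cells; at 2-fold, 1 was lower over all kept cells, 0 were higher and 0 lower in macrophage-like cells, and 3 higher and 1 lower in classical monocyte-like cells. With types from clusters, none of which was named nonclassical monocyte-like, the highest Csf1r level lay in classical monocyte-like cells of both libraries and the highest Csf2ra level in classical monocyte-like cells (Irg1+/+) and neutrophil-like cells (the other library). Of the shares of UMIs held by a type, 31 of 36 alternative values moved beyond their interval. The highest of the 11 types for Csf2 in the Irg1+/+ library became NK cell-like with the mean of each cell's CPM, after thinning and without cells of 2 lineages. Depth limits Csf2, with 63 and 41 UMIs, and the types under 100 cells.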
